A study of Mus musculus with 8 samples.

Results

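The genes described here handle cholesterol that arrives from outside the cell: they take up lipoproteins, move the sterol through lysosomes and between membranes, and store it as ester. The 10 genes Scarb1, Vldlr, Lrp1, Npc1, Npc2, Lipa, Soat1, Nceh1, Stard3 and Plin2 were found by their symbols among the 34745 Ensembl genes of the deposited tables, 1 row each. All 10 had enough counts to be tested, with 587 to 7330 counts per gene and library.

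Lipoproteins reach cells through surface receptors. Some receptors carry the whole particle into endosomes, and others transfer the cholesterol ester from a docked particle. In the lysosome an acid lipase frees cholesterol from its ester, and a pair of Niemann-Pick type C proteins passes it through the lysosomal membrane. Surplus cholesterol is esterified again in the endoplasmic reticulum and kept in droplets, from which a neutral hydrolase can release it.

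RNA-seq was carried out on 8 subcutaneous melanomas in C57BL/6J mice, raised by injecting B16F10, a murine line kept in DMEM with serum beforehand. The mice were fed either a normal diet (ND, 4 tumours) or a high cholesterol diet (HCD, 4 tumours), and the comparison asks which transcripts differ between the diets. The sources used here do not state diet composition, feeding time, age or sex of the mice, or whether each tumour came from a separate mouse. The spread behind the p-values is therefore that between these 8 samples and may be technical. All tumours carry the same transplanted line and host cells alongside it, so a transcript level is a mean over both.

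Total counts ran from 14599222 to 17722093 per library. The defining melanocyte markers Pmel, Tyr, Tyrp1, Dct, Mlana, Sox10 and Slc45a2 summed to 26682 to 30940 CPM (counts scaled by library total with TMM factors) in every library, while keratinocyte markers summed to at most 0.113 CPM. ND 2, ND 3 and ND 4 had counts on 18088 to 18224 genes, against 16285 to 16745 in ND 1 and the HCD libraries. ND 2 also stood apart on the first principal component. Values without single libraries, or with ND 2 to ND 4 set apart, are given below beside many of the single differences.

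Levels per gene length, as deposited FPKM (fragments scaled by gene length and library total), spanned 33.2-fold between the medians of the 10 genes. Npc2, the soluble sterol carrier of the lysosome, stood highest at 119.98 ± 7.05 FPKM in ND and 111.3 ± 3.71 FPKM in HCD (mean ± SD of 4 libraries, n = 4, as in all such values). Lipa, the lysosomal acid lipase, came next at 63.3 ± 2.94 and 67.5 ± 3.88 FPKM, and its range over the 8 libraries did not meet that of Npc2 or Plin2. In these units the transcripts of the 2 soluble lysosomal proteins were the most abundant of the 10.

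Plin2, a coat protein of lipid droplets, was at 24.9 ± 4.44 FPKM in ND and 22.9 ± 2.7 FPKM in HCD, followed by Scarb1, the receptor for high-density lipoprotein, at 23.3 ± 3.74 and 19.9 ± 0.632 FPKM. Nceh1, the neutral cholesterol ester hydrolase, was at 16.7 ± 1.71 and 21.1 ± 1.24 FPKM. The ranges of neighbours among these 3 genes overlapped, so their order is not separated by the spread between libraries. Npc1, the membrane-bound partner of Npc2, had a median of 11.9 FPKM and, in the deposited FPKM, lay below Nceh1 in 8 of 8 libraries. Stard3, which tethers endosomes to the endoplasmic reticulum, had a median of 8.1 FPKM.

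The lowest levels were those of Soat1, the acyltransferase that makes cholesterol ester, Lrp1, a large endocytic receptor, and Vldlr, a receptor for very-low-density lipoprotein. Their medians were 6.61, 6.07 and 3.44 FPKM. Soat1 and Lrp1 overlapped in range, although Soat1 was above Lrp1 in 8 of 8 libraries. The lengths behind the deposited FPKM differed from the merged exon lengths of GENCODE M21, from 0.453 times for Lipa to 1.5 times for Stard3. With the M21 lengths Plin2 (34.8) moved above Lipa (29.7), Npc2 remained highest at 68.4 and Vldlr lowest at 4.87, and the span was 14-fold.

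**Figure D1:**
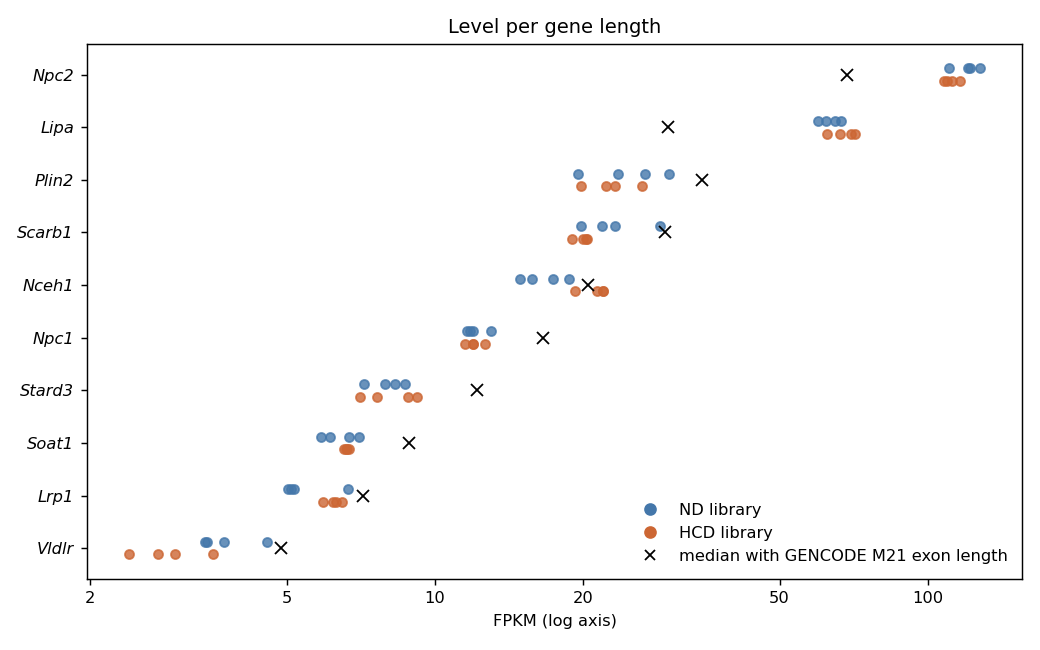
Level of each gene per length in the 8 libraries, with FPKM on a log axis and genes ordered by median. Circles are single libraries (blue ND, orange HCD) and crosses are medians recomputed with GENCODE M21 exon lengths, which put Plin2 at 34.8 and Lipa at 29.7.

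Between the diets, none of the 10 genes passed the test across all genes: 0 of 10 had an adjusted p under 0.05 (edgeR quasi-likelihood test, Benjamini-Hochberg), against 0.182% of the 13186 genes tested. Adjusted p-values ran from 0.168 to 0.989. At an unadjusted p under 0.05, 4 of 10 stood out, against 14.7% of all tested genes. Scarb1, Vldlr and Npc2 were lower in HCD (3 of 10, against 7.49% of all genes) and Nceh1 was higher (1 of 10, against 7.21%). DESeq2, run on 22893 genes with its own filter, and limma-voom also passed 0 members. Each had 4 members at an unadjusted p under 0.05, against 8.95% of all genes for DESeq2 and 14.9% for limma-voom. In all, 3 members were higher and 7 lower, against 51.1% of all tested genes higher, and the median log2 fold change was -0.035, against 0.0049 for all tested genes.

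Leaving out 1 library changed these counts. Without HCD 2 only Vldlr and Nceh1 remained at an unadjusted p under 0.05 (2 of 10, against 12.7% of all genes in that fit), and without ND 1 5 members were higher and 5 lower. A model that set ND 2 to ND 4 apart by a term of their own compared only ND 1 with the HCD group, assuming that this lone library varies like the others. It put Npc2, Nceh1 and Plin2 at an unadjusted p under 0.05 (3 of 10, against 11.3% of all genes in that fit), with 0 members passing. Only Vldlr had groups that did not overlap on the TMM-normalized scale, 1 of 10 against 9.67% of tested genes. In the deposited FPKM, which divide by the plain library total, that was the case for Nceh1 and not for Vldlr, again 1 of 10, against 10.4% of tested genes.

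**Figure D2:**
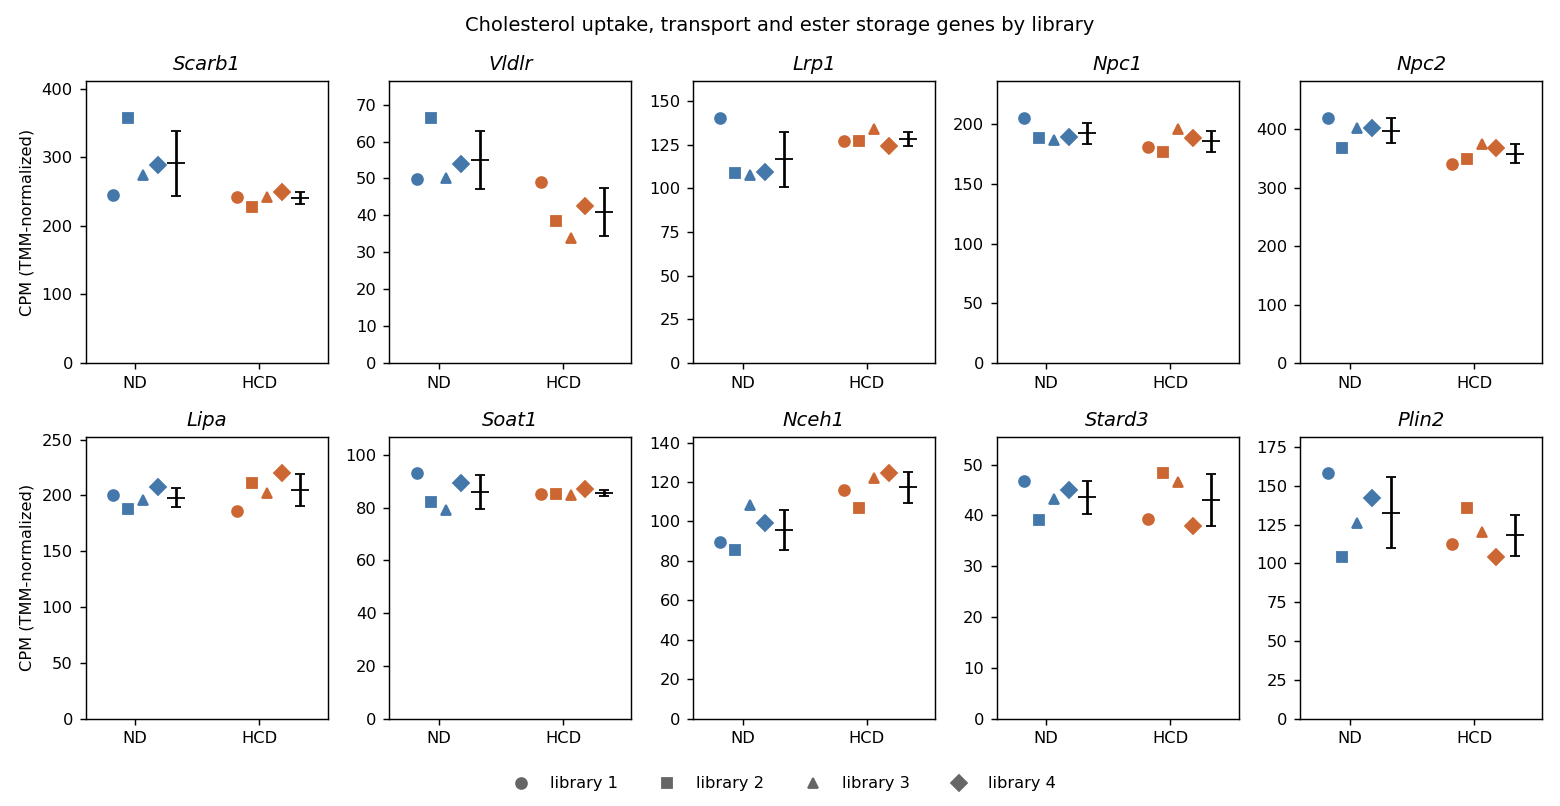
TMM-normalized CPM of the 10 genes in each library, by diet. Symbols give the library number within its group, and bars at the right of each group are the mean and SD of 4 libraries. Vldlr is the only panel in which the 4 HCD points (33.9 to 49.0) all lie below the 4 ND points (49.8 to 66.4).

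Among the surface receptors, Vldlr (ENSMUSG00000024924, mm10 chromosome 19, 27216484 to 27254231, plus strand) had the largest difference of the 10. This receptor takes up triglyceride-rich particles and also acts as a receptor for reelin. Its values were 49.8, 66.4, 50.01 and 53.9 CPM in ND 1 to ND 4, and 49.0, 38.4, 33.9 and 42.7 CPM in HCD 1 to HCD 4. The groups came within 1 CPM of each other, at ND 1 and HCD 1. Its log2 fold change was -0.42 (95% interval -0.72 to -0.13, adjusted p = 0.182). It was -0.32 without ND 2, -0.53 without HCD 1 and -0.28 with ND 2 to ND 4 set apart. Vldlr was at an unadjusted p under 0.05 in 16 of 17 alternative fits.

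RefSeq lists 2 start sites for Vldlr (GRCm38.p6), and their promoters, from 250 bases before to 50 bases after each start, are shown because Vldlr differed most between the diets. Capitals mark the NF-Y box CCAAT and the GC box GGGCGG on either strand, which the upstream window lacks. The windows are chr19:27216234-27216533 and chr19:27216770-27217069, both on the plus strand.
Vldlr upstream start: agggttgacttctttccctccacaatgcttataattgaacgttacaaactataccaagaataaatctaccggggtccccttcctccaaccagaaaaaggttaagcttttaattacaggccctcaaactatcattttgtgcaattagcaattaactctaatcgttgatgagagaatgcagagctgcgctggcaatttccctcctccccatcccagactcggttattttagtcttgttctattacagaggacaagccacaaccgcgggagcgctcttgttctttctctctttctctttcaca
Vldlr downstream start: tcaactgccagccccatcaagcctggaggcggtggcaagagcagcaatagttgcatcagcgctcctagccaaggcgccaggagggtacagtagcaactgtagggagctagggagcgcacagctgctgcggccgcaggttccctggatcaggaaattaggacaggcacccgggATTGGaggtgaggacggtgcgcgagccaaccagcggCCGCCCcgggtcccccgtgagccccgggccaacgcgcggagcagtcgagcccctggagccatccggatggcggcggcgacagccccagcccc
The upstream window was 43.0% G and C and the downstream window 68.0%, against a median of 52.7% over 32851 RefSeq promoters. The counts sum over the whole gene and do not separate transcripts of the 2 starts.

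Scarb1 (ENSMUSG00000037936, chromosome 5, 125277087 to 125341094, minus strand) takes up cholesterol ester from high-density lipoprotein without engulfing the particle. It was at 245.5, 357.6, 274.7 and 288.3 CPM in ND 1 to ND 4, and at 241.6, 228.3, 242.2 and 249.7 CPM in the HCD libraries. The HCD values lay close together, the ND values were spread by ND 2, and ND 1 fell within the HCD range. HCD differed from ND by a log2 fold change of -0.28 (95% interval -0.51 to -0.049, adjusted p = 0.261). It was -0.16 without ND 2 and -0.030 with ND 2 to ND 4 set apart, so its size rests on those ND libraries. Scarb1 was at an unadjusted p under 0.05 in 15 of 17 alternative fits.

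Lrp1 (ENSMUSG00000040249, chromosome 10, 127538161 to 127621148, minus strand) is an endocytic receptor for remnant particles, proteases and their inhibitors. ND 1 was at 140.5 CPM, above every HCD library, while ND 2, ND 3 and ND 4 were at 109.1, 107.98 and 109.7 CPM. The HCD libraries were at 127.4, 127.4, 133.8 and 124.5 CPM, between ND 1 and the other 3. This gave a log2 fold change of 0.14 (95% interval -0.066 to 0.34, adjusted p = 0.542). It was 0.24 without ND 1 (adjusted p = 0.186) and -0.13 with ND 2 to ND 4 set apart, so the direction depends on which ND libraries set the level.

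Among the lysosomal genes, Npc2 (ENSMUSG00000021242, chromosome 12, 84754562 to 84773152, minus strand) binds cholesterol in the lysosomal lumen and hands it to Npc1. It was at 419.4, 367.2, 402.4 and 401.6 CPM in ND and at 339.7, 349.3, 374.5 and 367.5 CPM in HCD. Only ND 2 reached into the HCD range. The log2 fold change was -0.15 (95% interval -0.29 to -0.014, adjusted p = 0.299), and -0.23 with ND 2 to ND 4 set apart. With 1 library left out it ran from -0.19 (without ND 2) to -0.13 (without ND 1). Of 17 alternative fits, 10 had Npc2 at an unadjusted p under 0.05.

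Npc1 (ENSMUSG00000024413, chromosome 18, 12189692 to 12236400, minus strand) exports cholesterol through the lysosomal membrane. It was at 205.3 CPM in ND 1 and 186.4 to 189.4 CPM in the other ND libraries, against 176.6 to 196.1 CPM in HCD. Its log2 fold change was -0.052 (95% interval -0.19 to 0.084, adjusted p = 0.759), and -0.15 with ND 2 to ND 4 set apart. The ratio of Npc2 to Npc1 was 1.95 to 2.16 in ND and 1.88 to 1.98 in HCD on the CPM scale. Exons of Npc1 share 5.31% of their length with Rmc1 and Gm15956 on the other strand, and without a stated strand setting reads there cannot be told apart.

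Lipa (ENSMUSG00000024781, chromosome 19, 34492318 to 34527474, minus strand) hydrolyses the cholesterol ester and triglyceride of endocytosed particles. Its 8 values ran from 185.9 CPM in HCD 1 to 219.7 CPM in HCD 4, so the HCD group spanned the whole ND range of 187.4 to 207.4 CPM. HCD differed from ND by a log2 fold change of 0.049 (95% interval -0.10 to 0.20, adjusted p = 0.8). It was 0.029 with ND 2 to ND 4 set apart. Stard3 (ENSMUSG00000018167, chromosome 11, 98358368 to 98381112, plus strand), a sterol transfer protein of late endosomes, was at 39.2 to 46.8 CPM in ND and 38.0 to 48.3 CPM in HCD. Its log2 fold change was -0.017 (95% interval -0.24 to 0.21, adjusted p = 0.964), and its sign turned when any of ND 1, HCD 1 or HCD 4 was left out. With ND 2 to ND 4 set apart it was -0.12.

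In the cycle of ester storage, Soat1 (ENSMUSG00000026600, chromosome 1, 156424525 to 156474331, minus strand) had the smallest difference of the 10. It was at 92.97, 82.2, 78.9 and 89.2 CPM in ND and at 85.1, 85.3, 84.8 and 87.2 CPM in HCD, and every HCD value lay inside the ND range. This gave a log2 fold change of -0.0037 (95% interval -0.16 to 0.15, adjusted p = 0.989), and -0.12 with ND 2 to ND 4 set apart. Its relative Soat2, the ester-forming enzyme of intestine and liver, had 0 to 5 counts per library and was not tested.

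Nceh1 (ENSMUSG00000027698, chromosome 3, 27182965 to 27284608, plus strand) runs the opposite reaction to Soat1, releasing cholesterol from droplet ester. It was at 89.5, 85.6, 108.2 and 99.4 CPM in ND and at 116.1, 106.7, 122.1 and 124.4 CPM in HCD. Of the 4 HCD libraries, 3 lay above all ND libraries, and HCD 2 lay just under ND 3. The log2 fold change was 0.30 (95% interval 0.10 to 0.49, adjusted p = 0.168), with 0.25 to 0.36 when 1 library was left out and 0.39 with ND 2 to ND 4 set apart. All 17 alternative fits had it at an unadjusted p under 0.05, with adjusted p from 0.0724 to 0.378. The ratio of Nceh1 to Soat1 in CPM, which does not depend on library scaling, was 0.962, 1.04, 1.37 and 1.11 in ND and 1.36, 1.25, 1.44 and 1.43 in HCD, so ND 3 overlapped the HCD range.

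Plin2 (ENSMUSG00000028494, chromosome 4, 86648386 to 86670060, minus strand) coats lipid droplets and is widely used as a marker of neutral lipid load. It was at 157.96, 104.3, 125.9 and 141.8 CPM in ND and at 112.7, 135.3, 120.4 and 104.3 CPM in HCD. The groups overlapped over the whole HCD range, with ND 2 at the level of HCD 4. Its log2 fold change was -0.16 (95% interval -0.45 to 0.12, adjusted p = 0.608). It was -0.069 without ND 1, -0.26 without ND 2 and -0.42 with ND 2 to ND 4 set apart (adjusted p = 0.409), so the size followed the choice of ND libraries.

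The promoters of Nceh1 and Plin2 are shown because these genes act on the same droplets and, of the 8 members with a RefSeq promoter (GRCm38.p6), were the 2 whose window held the E-box CACGTG. Capitals mark the E-box, the NF-Y box CCAAT and the GC box GGGCGG on either strand, in chr3:27182754-27183053 (plus strand) and chr4:86670010-86670309 (minus strand).
Nceh1: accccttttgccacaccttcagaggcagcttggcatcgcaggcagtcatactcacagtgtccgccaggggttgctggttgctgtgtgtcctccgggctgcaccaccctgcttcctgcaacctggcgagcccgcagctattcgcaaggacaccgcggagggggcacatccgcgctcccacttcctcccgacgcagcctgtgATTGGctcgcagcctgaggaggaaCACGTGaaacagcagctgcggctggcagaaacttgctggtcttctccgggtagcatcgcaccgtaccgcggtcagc
Plin2: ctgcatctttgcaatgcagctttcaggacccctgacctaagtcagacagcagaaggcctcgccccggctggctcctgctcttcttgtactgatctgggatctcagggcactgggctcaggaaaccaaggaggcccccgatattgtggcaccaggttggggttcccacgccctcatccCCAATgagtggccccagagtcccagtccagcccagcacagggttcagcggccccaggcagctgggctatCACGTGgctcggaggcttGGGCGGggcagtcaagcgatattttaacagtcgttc
The E-box began 26 bases before the start in Nceh1 and 4 bases before it in Plin2, and 7.15% of 32851 RefSeq promoters hold it. Each holds ACGTG, the core of the hypoxia response element, only inside the E-box, and 19.6% of all promoters hold ACGTG. The log2 differences of the 2 genes had opposite signs, 0.30 and -0.16.

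Over the 9 windows of the 8 members, CCAAT was in 7 and GGGCGG in 7, against 37.4% and 35.7% of all promoters. The upstream Vldlr window was 43.0% G and C and the others 59.3% to 68.0%, against a median of 52.7% over all promoters. The part of base composition in these counts was not tested. These windows were also searched on both strands for 1 spelling each of the sterol regulatory element (in 0.234% of all promoters), the CLEAR element of lysosomal genes (0.326%) and the LXR element (0.0152%). None of the 9 windows held those letters, and other spellings were not searched.

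**Figure D3:**
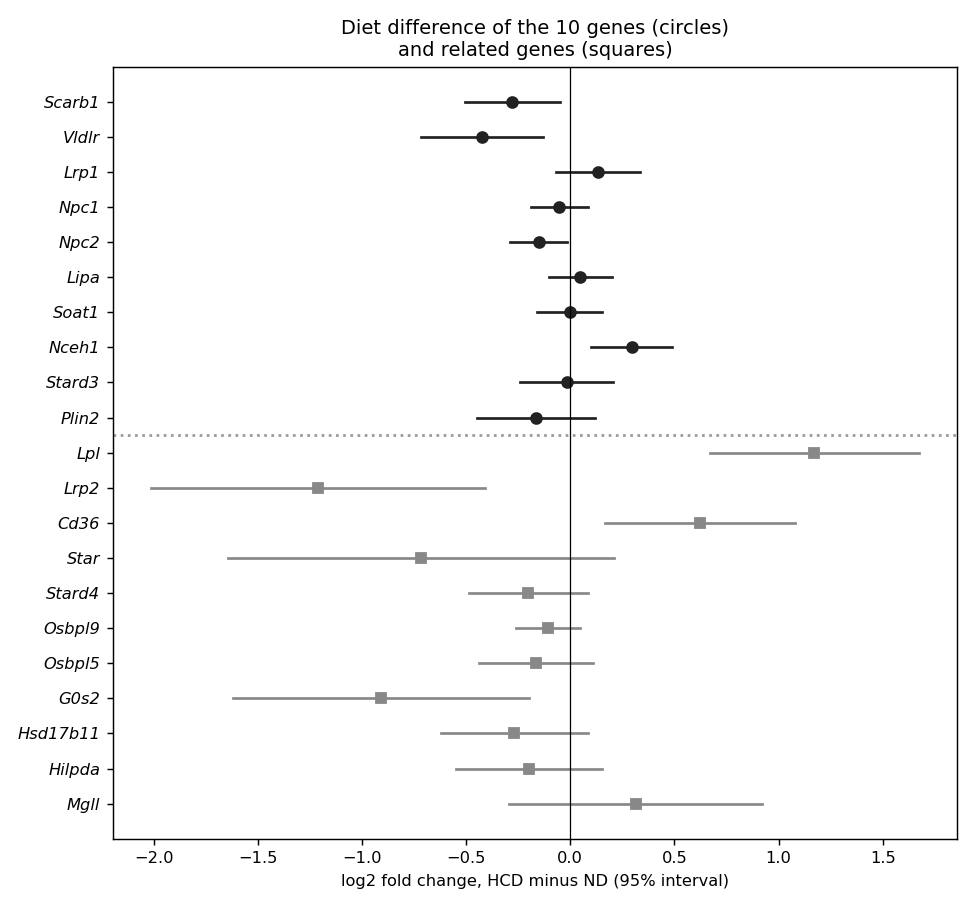
Log2 fold change (HCD minus ND) with its 95% interval for the 10 genes (circles) and for related genes named by rule (squares). Intervals of Scarb1, Vldlr, Npc2 and Nceh1 lie on one side of 0, and that of Soat1 runs from -0.16 to 0.15.

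Other genes of the pathway were counted from 3 lists. Of 19 further genes of lipoprotein uptake, 14 were tested, 6 were higher and 8 lower, and 0 passed across all genes, with a median log2 fold change of -0.087. At an unadjusted p under 0.05 there were 3 of 14, Lpl, Lrp2 and Cd36, against 14.7% of all tested genes. These were also the 3 whose groups did not overlap, against 9.67% of all tested genes.

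Lpl, the lipase that releases fatty acids from particles at the vessel wall, averaged 6.65 ± 2.3 CPM under ND and 15.0 ± 1.87 CPM under HCD, a log2 difference of 1.17 (adjusted p = 0.0723). Setting ND 2 to ND 4 apart gave 0.65. DESeq2 and the fit with no expression filter passed it (adjusted p = 0.000106 and 0.0182). Cd36, a scavenger receptor and fatty acid transporter, averaged 8.61 ± 2.32 and 13.3 ± 2.38 CPM (log2 difference 0.62, adjusted p = 0.209, and 0.27 with ND 2 to ND 4 set apart). Lrp2, a large receptor of absorptive epithelia, was low, with 8 to 37 counts per library. It averaged 1.44 ± 0.539 and 0.617 ± 0.171 CPM (log2 difference -1.21, adjusted p = 0.168). The Lrp2 difference was -0.91 without ND 2 and -0.81 with ND 2 to ND 4 set apart. Lpl and Cd36, which fat cells and macrophages also express, were on the higher side in HCD and Lrp2 on the lower. The 7 adipocyte markers, of which 1 had enough counts to be tested, summed to 7.67, 11.2, 7.72 and 8.33 CPM in ND. In HCD they summed to 43.5, 12.2, 23.9 and 9.19 CPM. Within HCD, Lpl was lowest in HCD 1 (13.0 CPM) and highest in HCD 2 (16.7 CPM), while Cd36 was highest in HCD 1 (16.4 CPM). Skeletal muscle markers ran opposite to Lpl and Cd36. Their mean sum was only 5.11 CPM with HCD, against 38.4 CPM with ND, although ND 4 (5.69 CPM) lay inside the HCD range. The part of fat cells, macrophages, endothelium and skeletal muscle in the differences of Lpl and Cd36 was not tested.

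Of 22 genes of intracellular sterol transfer, 21 were tested, 5 were higher and 16 lower, with a median log2 fold change of -0.066. Of all tested genes, 51.1% were higher. By edgeR 0 of 21 had an unadjusted p under 0.05, against 14.7% of all tested genes. Stard4, a soluble sterol carrier induced by low cholesterol, averaged 88.0 ± 15.2 CPM under ND and 76.6 ± 9.41 CPM under HCD (log2 difference -0.20, adjusted p = 0.523, and -0.084 without ND 2). The oxysterol-binding relatives Osbpl9 and Osbpl5 had log2 fold changes of -0.11 and -0.16. That of Osbpl5 was -0.076 without ND 1, -0.27 without ND 2 and -0.40 with ND 2 to ND 4 set apart. Star, the mitochondrial cholesterol importer of steroid-producing cells, was at most 1.39 CPM.

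Of 23 further genes of storage and droplets, 13 were tested, 6 were higher and 7 lower, with a median of -0.049 and 0 passing. At an unadjusted p under 0.05 there was 1 of 13, against 14.7% of all tested genes. This was G0s2, an inhibitor of the droplet lipase, which was low, with 15 to 72 counts per library. It averaged 3.53 ± 0.78 CPM under ND and 1.88 ± 0.757 CPM under HCD (log2 difference -0.91, adjusted p = 0.235). The G0s2 difference was -0.68 without HCD 2 and -0.42 with ND 2 to ND 4 set apart. HCD 1, at 2.76 CPM, lay above ND 1, at 2.52 CPM. Hilpda, a hypoxia-induced droplet protein, was at 54.2 ± 9.54 and 47.2 ± 8.71 CPM. Its log2 difference was -0.20, and -0.44 with ND 2 to ND 4 set apart. Hsd17b11, a droplet-associated dehydrogenase, was at 40.4 ± 4.78 and 33.5 ± 7.21 CPM, and Mgll, the monoglyceride lipase, at 262.2 ± 89.0 and 325.8 ± 108.4 CPM (log2 difference 0.31, adjusted p = 0.658). The difference of Mgll was 0.10 without HCD 3, 0.13 without ND 2 and 0.53 without ND 1, and it turned to -0.19 with ND 2 to ND 4 set apart.

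The droplet coat family was represented mainly by Plin3 and Plin2, named here after their values were seen. Plin3, a coat protein that also occurs in the cytosol, was at 151.9 ± 11.1 FPKM in ND and 158.2 ± 9.73 FPKM in HCD, above Plin2 in every library. Plin1 and Plin5 had at most 14 and 3 counts per library. Plin4 had 80 counts in HCD 1, where adipocyte markers also had their highest sum, 43.5 CPM against 7.67 to 23.9 CPM elsewhere, and the part of fat cells in its level was not tested.

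Host cell markers varied between libraries beside these genes. The 12 macrophage markers summed to 573.0, 338.2, 385.3 and 450.7 CPM in ND 1 to ND 4 and to 519.0 to 675.5 CPM in HCD, with 10 higher and 2 lower in HCD and none at 0. The lowest sum was in ND 2, where Nceh1 and Plin2 were also lowest and Scarb1 and Vldlr were highest. Cd68, 1 of the 12 macrophage markers, went the other way. It was highest in ND 2, at 169.1 CPM, and its log2 difference between the diets was 0.039. ND 1 had the highest sum of the ND group, where Lrp1 and Plin2 were highest but Nceh1 was at 89.5 CPM. Fibroblast markers summed to 63.1 to 285.0 CPM in ND and 82.1 to 294.9 CPM in HCD, and endothelial markers to 62.4 to 82.3 and 84.7 to 92.6 CPM. Of 7 fibroblast markers tested, 7 were higher in HCD and 0 lower. Of 5 endothelial markers, 5 were higher and 0 lower, against 51.1% of all tested genes higher. Skeletal muscle markers summed to 50.4, 83.4, 14.3 and 5.69 CPM in ND and 3.57 to 6.98 CPM in HCD, with 0 of 6 tested higher and 6 lower. The part of these cells in the differences of the 10 genes was not tested, and fewer cells of a type and less RNA per cell cannot be told apart in bulk tumours.

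**Figure D4:**
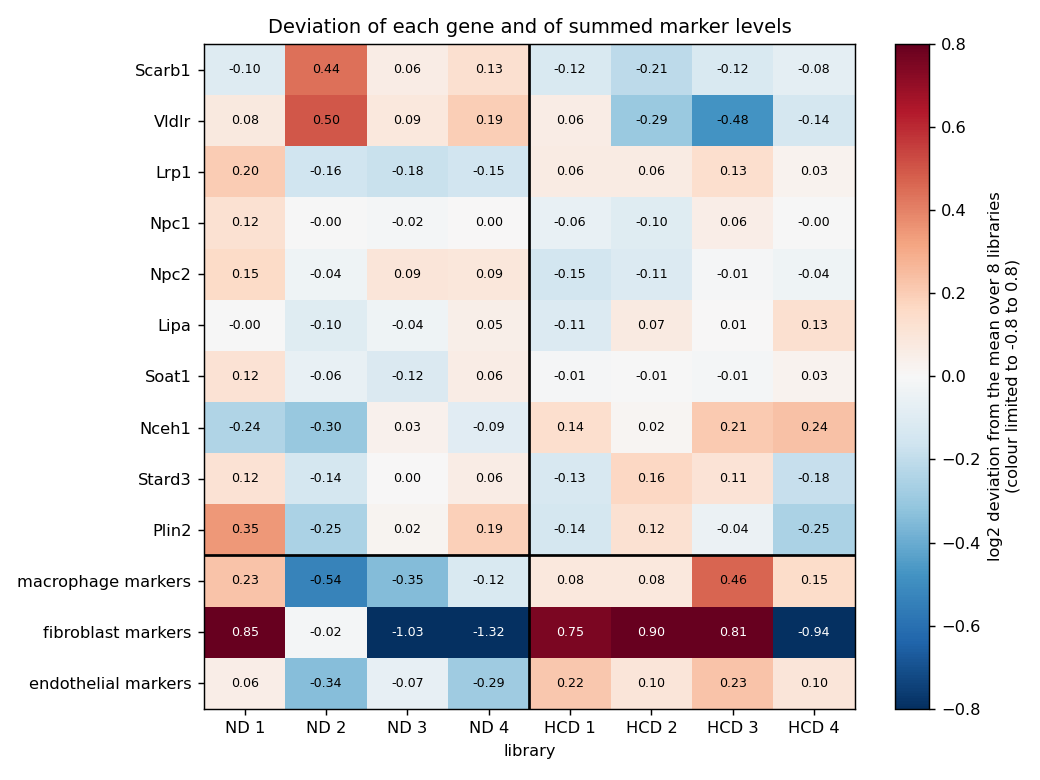
Deviation of log2 CPM from each gene's mean over the 8 libraries, for the 10 genes and for the summed levels of macrophage, fibroblast and endothelial markers. ND 2 holds the highest values of Scarb1 (0.44) and Vldlr (0.50) and the lowest of Nceh1 (-0.30), Plin2 (-0.25) and the summed macrophage markers (-0.54).

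Across the libraries, ND 1 held the highest value of 5 genes (Lrp1, Npc1, Npc2, Soat1 and Plin2) and ND 2 that of 2 (Scarb1 and Vldlr). The mean absolute deviation from each gene's mean over the 8 libraries was 0.2 on the log2 scale in ND 2 and 0.15 in ND 1, against 0.065 to 0.12 in the other 6 libraries.

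**Figure D5:**
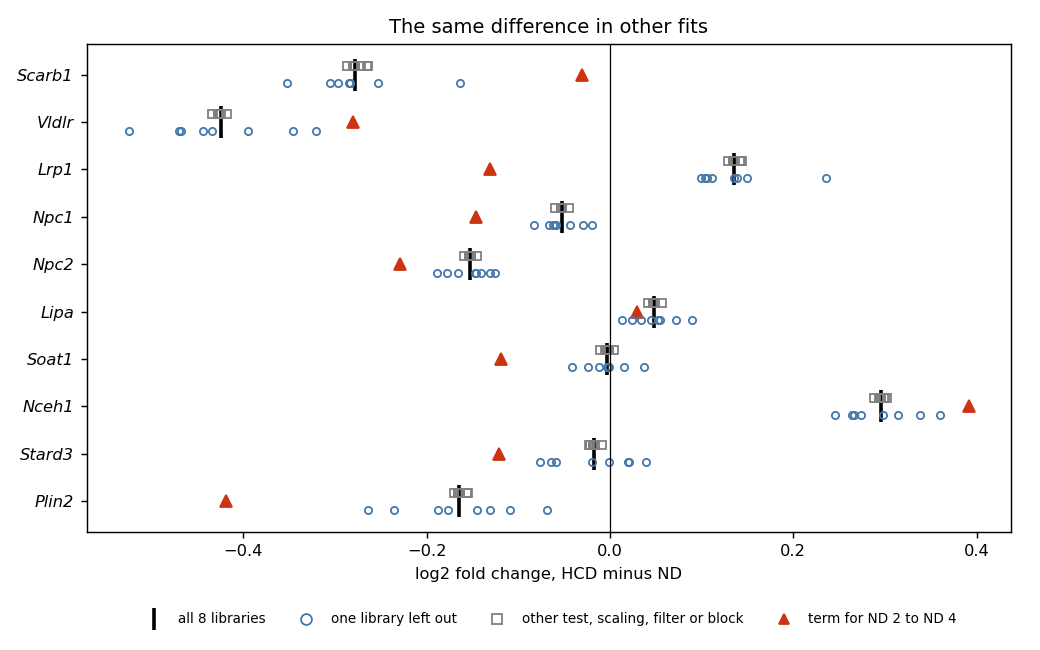
Log2 fold change of each gene in the fit on all 8 libraries (black bar), with 1 library left out (blue circles), under other tests, scalings, filters or the replicate block (grey squares) and with ND 2 to ND 4 set apart (red triangle). The triangle lies at -0.030 for Scarb1 and -0.13 for Lrp1, and at 0.39 for Nceh1.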

How the data were processed

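Upstream, edgeR, HTSeq, TopHat2 2.0.9 and CASAVA 1.8 were used with the build mm10, per the submitters' processing notes, which assign no roles. Annotation and strand setting: not given in the sources used here. Counts were deposited as whole numbers per Ensembl gene, per the file headers. FPKM were deposited by the authors, per the file headers, and equal the count over a gene length and the library total; they were used for levels between genes.

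Symbols came from GENCODE M21 (34267 of 34745 identifiers matched). Groups and replicate numbers came from the sample titles. Diets were compared by the quasi-likelihood F-test of edgeR 4.0.16 under R 4.3.3, with TMM factors, a minimum count of 10 and minimum total of 15, diet as the only term, and Benjamini-Hochberg adjustment over 13186 genes at 0.05. Standard errors were the absolute log2 fold change over the root of F, and 95% intervals used edgeR's degrees of freedom. DESeq2 1.42.0 and limma 3.58.1 served as alternatives, beside other scalings and filters, a robust fit, the replicate number as a block, each library left out in turn, and a term for ND 2 to ND 4. Promoters came from RefSeq (GRCm38.p6); Scarb1 and Npc1 were not matched. Libraries of a group differed by at least 14.5 times sampling variance, more than repeats of a single library would; this does not show that they are separate mice.

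On simulated counts for the HCD against ND comparison (13029 genes), the fit recovered 31.3% of 1.5-fold, 67.2% of 2-fold and 93.9% of 4-fold changes.

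The members and lists were chosen with earlier results of these data known. The rule named the 10 members and, from each of 3 further lists, the 4 tested genes with the smallest p plus any passing the adjusted threshold. A gene it also named is not reported here and is left out of the counts of its list, which leaves 21 named genes. Soat2, Rmc1, Gm15956, Plin1, Plin3, Plin4, Plin5 and Cd68 fall outside it and were named after their values were seen.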

Additional observations from a re-analysis of the deposited data

Results flagged for a closer look

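In the 42 groups of 4 libraries checked over the 21 named genes, 2 values stood far from the rest of their group, against about 2.1 that chance gives at 1 in 20 groups. Both were in ND 1. Lrp1 was at 140.45 CPM in ND 1, against 107.98 to 109.65 CPM in ND 2 to ND 4. Npc1 was at 205.27 CPM in ND 1, against 186.39 to 189.39 CPM in the other ND libraries. The cause was not tested.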

How the results depend on the processing

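Of 17 alternative fits, 0 passed any of the 10 genes across all genes. The number of genes called among all tested was 24, and it was 429 with DESeq2 (run on 22893 genes with its own filter, so test and filter changed together), 93 with no expression filter, 50 with a robust fit, 42 with at least 1 CPM in 4 libraries, 5 with ND 2 to ND 4 set apart, and 0 to 12 when 1 library was left out (0 without ND 4 or HCD 4, with 1603 and 1516 genes at an unadjusted p under 0.05 by edgeR). With the replicate block it was 0 (edgeR), with 1634 genes at an unadjusted p under 0.05. No pairing by replicate number was seen: same-numbered libraries correlated at -0.0676 to 0.107 and 1 of 8 correlated best with its own number. With 4 pairs, this cannot show that the numbers carry no pairing. With 1 library left out, the members at an unadjusted p under 0.05 numbered 2 to 5 of 10 (against 11.3% to 14% of all genes in those fits), the members higher in HCD 3 to 5, and their median -0.071 to -0.00019. The median was -0.126 with ND 2 to ND 4 set apart, where Lrp1 (-0.13) and Mgll (-0.19) changed sign. Soat1 changed sign with no filter (0.0044), and with 1 library left out ran from -0.042 to 0.037, and Stard3 from -0.076 to 0.039. The cause of these changes was not tested, except that leaving out a library also leaves fewer samples. The 10 genes had at least 587 counts per library, and the part of depth in their results was not tested. Soat2, Plin1 and Plin5, with at most 14, allow no comparison.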
